A study of Mus musculus with 6 samples.

Results

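The telomerase and shelterin genes described here are Tert, Dkc1, Terf1, Terf2, Terf2ip, Tinf2, Pot1a, Acd, Rif1 and Rtel1. They were taken by name, as every probe whose symbol in the array's platform annotation is one of these 10, and the 10 genes hold 26 of the 45281 probes on the array and are 10 of the 19057 genes with a named probe. Expression was compared between MIN6 cells and D3 cells. MIN6 is a mouse pancreatic β-cell insulinoma line, labelled passage 23 here, and is a transformed cell line rather than islet tissue. D3 is a mouse embryonic stem (ES) cell line, labelled passage 21 here, that was grown on gelatin with leukemia inhibitory factor. Each line gave 3 samples, and 1 Illumina BeadChip array of the Mouse WG-6 v2.0 type was run for each on total RNA. The labels name no treatment and no engineered allele for either line, which does not show that the lines carry none. Each line is 1 cell line, so tissue, transformation and other differences between the lines cannot be told apart.

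Telomeres are the repeat ends of chromosomes, which shorten with each round of replication unless telomerase adds repeats back. Telomerase is a reverse transcriptase, encoded by Tert, that copies an RNA template, Terc, and is held together by dyskerin (Dkc1) and its small nucleolar RNA-binding partners. Shelterin is the protein complex that coats the repeats and keeps the end from being read as a break. Terf1 and Terf2 bind the double-stranded repeats, Terf2ip (Rap1) binds Terf2, Tinf2 bridges the complex, and Acd (Tpp1) brings Pot1 proteins to the single-stranded end and recruits telomerase. Rif1, a telomere protein in yeast, acts in mammals mainly in replication timing and the choice of DNA repair route, and Rtel1 is a helicase that unwinds telomere loops and G-rich structures. ES cells are known for active telomerase and long telomeres. Neither telomere length nor telomerase activity was measured in these samples.

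The deposited detection score marked between 15563 and 16259 probes as above background on an array (34.4 to 35.9%, detection p under 0.01). Before normalization the median signals lay between 138.8 and 188.1 on the MIN6 arrays and between 134.4 and 175.5 on the D3 arrays. The marker genes matched the labels of the lines. All 5 ES cell markers (Pou5f1, Nanog, Zfp42, Sox2 and Dppa5a) were called lower and all 5 β-cell markers (Ins2, Iapp, Pdx1, Nkx6-1 and Chga) were called higher in MIN6 cells. Of 8 fibroblast or feeder markers 7 were above background on no array, and the 8th, Thy1, was lower in MIN6 cells. The summed signal of all 8 markers, of which only Thy1 rose above background, was 1001 to 1070 on the MIN6 arrays and 1374 to 1464 on the D3 arrays. It does not measure a fibroblast content, and the part of such cells in the results was not tested. The other islet hormone genes Gcg, Sst and Ppy were called higher in MIN6 cells as well. In bulk RNA, fewer expressing cells and less RNA per cell cannot be told apart.

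Taking each gene by its brightest probe, 1 member was called higher in MIN6 cells (Acd) and 2 were called lower (Terf1 and Rif1), while 7 were not called. A call needed a Benjamini-Hochberg adjusted p under 0.05 over all probes in limma and a difference of at least 1.5-fold. Over all 19057 genes, 17.1% were called higher, 17.5% lower and 34.5% either way, so 3 of 10 is a share near that of the array as a whole. The median log2 change was -0.18 over the members and -0.01 over all genes. Both medians include genes at background, among them 4 members (Tert, Dkc1, Tinf2 and Pot1a). The groups did not overlap for the brightest probes of 7 members, and this held for 54.4% of all genes. Tert, Dkc1 and Tinf2 are among the 7, though they were above background on no array. Counted by probe, 13 of the 26 were above background on all 6 arrays, 4 on some and 9 on none. Of the 26, 2 were called higher and 8 lower, against 5649 (12.5%) and 6068 (13.4%) of all 45281 probes. Several of the 8 are probes of the same gene (Rif1, Terf2 and Rtel1), so they are not separate members. Of all probes, 34.4 to 35.9% were above background on an array, so these counts are not set against probes of like signal.

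**Figure D1:**
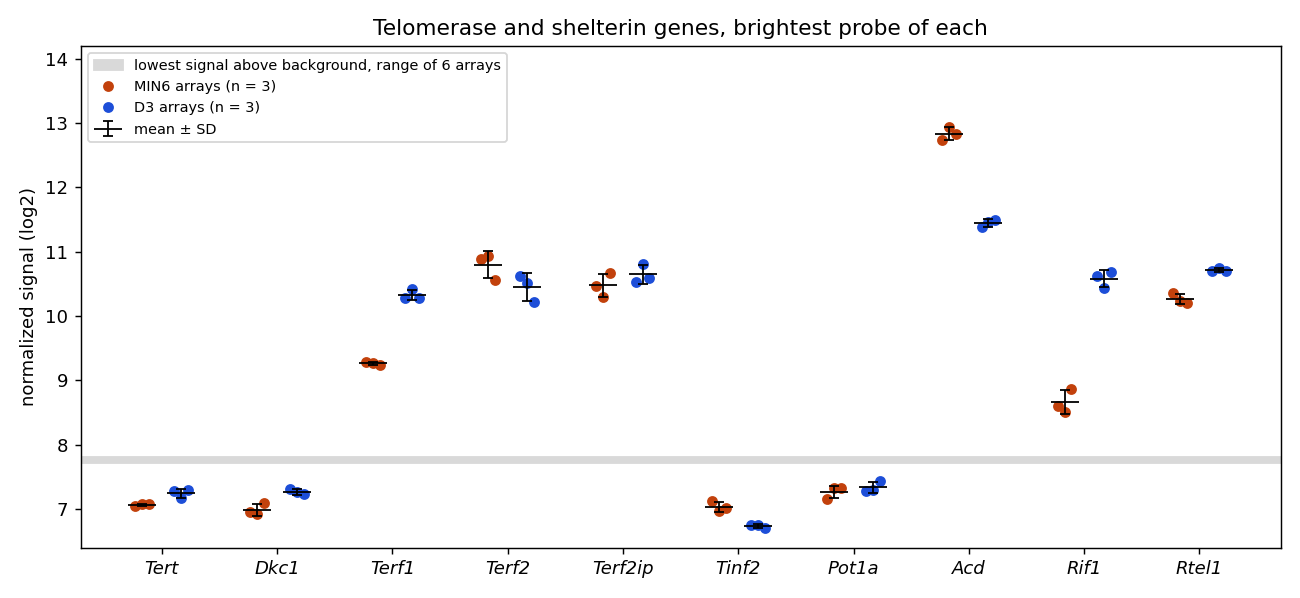
Normalized signal (log2) of the brightest probe of each of the 10 genes on every array, with MIN6 (orange) left of D3 (blue), points for single arrays, and the mean with its SD (n = 3 each). Tert, Dkc1, Tinf2 and Pot1a lie below the grey band of the lowest signals above background, Acd stands higher in MIN6 cells, and Terf1 and Rif1 stand lower.

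The telomerase probes gave no measurable level in either line. The Tert probe, for the catalytic subunit, read 7.05, 7.08 and 7.07 on the MIN6 arrays and 7.28, 7.17 and 7.30 on the D3 arrays, on the log2 scale of normalized signal, and was above background on 0 of 6 arrays. The lowest signals above background were 7.72 to 7.81 on that scale. Both Dkc1 probes were also above background on no array, the brighter at 6.95, 6.92 and 7.10 in MIN6 cells and 7.32, 7.27 and 7.23 in D3 cells. The probe for the template RNA Terc averaged 6.90 in MIN6 cells and 6.89 in D3 cells and was above background on no array. Whether these probes detect their transcripts could not be checked here, so the readings do not show that the genes are low in either line. No fold is reported and no difference was measurable, whatever the p of the fit (adjusted p = 0.0235 in limma for the brighter Dkc1 probe and 0.150 for Tert). The same held for 2 shelterin genes, Tinf2 with 1 probe and Pot1a with 2 probes, none of them above background on any array (limma adjusted p = 0.0142 for Tinf2, and 0.690 and 0.0445 for the Pot1a probes).

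Acd was the shelterin gene that was upregulated in MIN6 cells. Its brightest probe read 12.74, 12.93 and 12.83 in MIN6 cells and 11.38, 11.47 and 11.49 in D3 cells. Every MIN6 array lay above every D3 array. The difference was 1.39 ± 0.10 (log2, SE), or 2.62-fold, with an adjusted p of 9.2e-11 in limma. The second Acd probe read 8.93, 8.84 and 8.68 in MIN6 cells and 7.73, 7.62 and 7.76 in D3 cells. It was above background on all 3 MIN6 arrays and on 0 D3 arrays, so its difference is given as a bound, at least 2.05-fold higher in MIN6 cells (adjusted p = 5.1e-09, limma).

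Terf1, which binds the double-stranded repeats and aids their replication, was downregulated in MIN6 cells. Its brightest probe read 9.29, 9.27 and 9.25 in MIN6 cells and 10.28, 10.42 and 10.29 in D3 cells. The arrays of the lines stood apart by far more than the spread within either. The change was -1.06 ± 0.10 (log2, SE), 2.09-fold lower, with an adjusted p of 4.8e-09 in limma. The second Terf1 probe, at 6.92 on average in MIN6 cells and 6.90 in D3 cells, was above background on no array and gives no level. The Terf1 call therefore rests on 1 probe, which is assigned to a cDNA clone record. The probe at background is the one assigned to a transcript record of Terf1. The mean of both probes gave -0.52 (adjusted p = 0.000194, limma), below the 1.5-fold threshold.

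Terf2, whose protein folds the end into a protective loop, was read by 5 probes that did not move alike. The brightest probe, ILMN_2912318, read 10.89, 10.94 and 10.56 in MIN6 cells and 10.62, 10.52 and 10.21 in D3 cells. These ranges overlapped, and the change of 0.34 ± 0.12 (log2, SE; 95% interval 0.09 to 0.60) was not called, at an adjusted p of 0.0266 in limma and 1.27-fold. With the mean of all 5 probes the direction turned, to -0.35 (adjusted p = 0.00158, limma), also under 1.5-fold. A second probe, ILMN_2623712, also overlapped, with a change of 0.24 ± 0.12 and an adjusted p of 0.131 in limma.

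Another pair of Terf2 probes was called lower in MIN6 cells. ILMN_1247870, assigned to another transcript record of Terf2, read 7.92, 7.79 and 7.62 in MIN6 cells and 8.75, 9.01 and 8.63 in D3 cells. It was above background on 2 MIN6 arrays and on all 3 D3 arrays, and its change was -1.02 ± 0.11 (log2, SE; adjusted p = 1.1e-07, limma). ILMN_1222324, assigned to a cDNA clone record, read 7.51, 7.70 and 7.62 in MIN6 cells and 8.77, 8.92 and 8.79 in D3 cells. It was above background on 0 MIN6 arrays, so MIN6 cells were at least 2.11-fold lower (adjusted p = 9.8e-10, limma). The fifth probe was above background on no array.

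**Figure D2:**
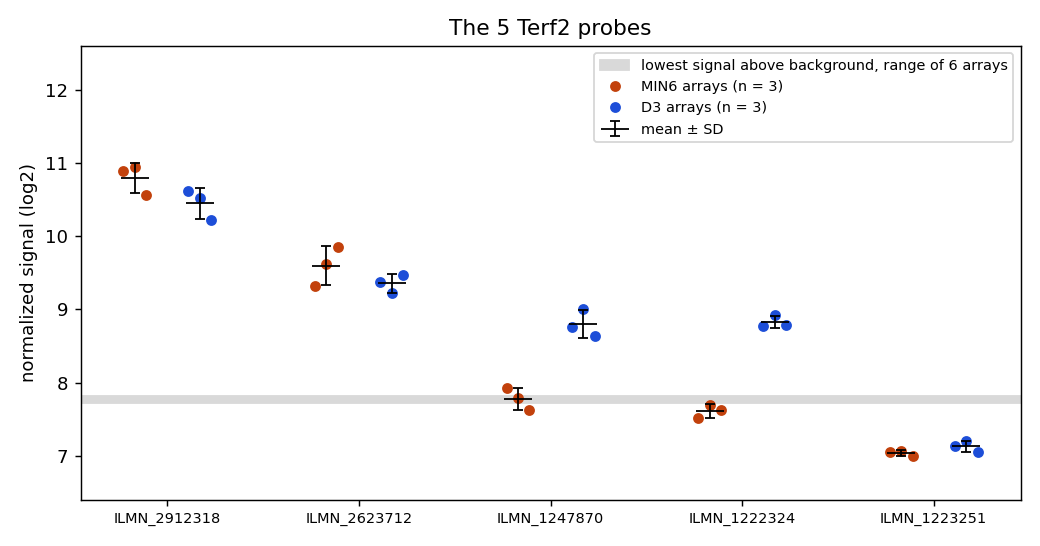
Normalized signal (log2) of the 5 Terf2 probes on every array, with MIN6 (orange) left of D3 (blue) and the mean with its SD (n = 3 each). The first and second probes overlap between the lines, ILMN_1247870 and ILMN_1222324 stand lower in MIN6 cells near or under the grey band of the lowest signals above background, and ILMN_1223251 is under it in both.

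Ratios within an array compare how these probes changed in the same RNA. The log2 ratio of the ILMN_1247870 probe to the brightest Terf2 probe was -2.97, -3.16 and -2.93 in MIN6 cells and -1.87, -1.51 and -1.58 in D3 cells, a difference of -1.37. The log2 ratio of the brightest Terf1 probe to the brightest Terf2 probe was -1.60, -1.67 and -1.31 in MIN6 cells and -0.34, -0.10 and 0.07 in D3 cells, a difference of -1.41. In both ratios every MIN6 array lay below every D3 array. The ILMN_1247870 ratio was not in the plan and pairs a probe called lower with one that was not. Its separation follows from that choice and is a description only. For the Terf1 to Terf2 ratio the two-sided exact permutation p was 0.1, the smallest that 3 against 3 arrays allow. That test therefore cannot decide whether the probes of this ratio changed unequally. The Terf1 to Terf2 ratio also pairs a probe called lower with one that was not, so its separation is a description of these arrays. The ratio does not show which of its probes stayed level. With each gene taken as the mean of all its probes, those at background included, the difference in the Terf1 to Terf2 ratio was -0.17. The ratio of Pot1a to Pot1b, the other mouse Pot1 gene, has no value because no probe of either was above background on any array.

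Terf2ip, the Rap1 protein of shelterin, was not called with any of its 4 probes. Its brightest probe read 10.47, 10.30 and 10.66 in MIN6 cells and 10.54, 10.82 and 10.60 in D3 cells, a change of -0.17 with a 95% interval of -0.40 to 0.06 (adjusted p = 0.269, limma). The other 3 Terf2ip probes changed by -0.15, 0.01 and -0.21 on the log2 scale. The 95% intervals of all 4 probes lay within 1.5-fold in either direction, on a spread between arrays that may be only technical. The dimmest probe, ILMN_2604776, was near background, above it on 2 MIN6 arrays. With normexp background correction its change was -0.42, so its interval, from signals without that correction, does not exclude a larger change.

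Rif1 had the largest change among the members, and all 3 of its probes were called lower in MIN6 cells. The brightest read 8.60, 8.51 and 8.87 in MIN6 cells and 10.62, 10.43 and 10.68 in D3 cells. The change was -1.92 ± 0.11 (log2, SE), 3.79-fold lower, with an adjusted p of 3.3e-12 in limma. The second probe read 8.71, 8.88 and 8.84 in MIN6 cells and 10.05, 10.02 and 10.18 in D3 cells, a change of -1.28. The dimmest read 7.97, 7.82 and 7.76 in MIN6 cells and 8.74, 8.47 and 8.83 in D3 cells, a change of -0.83. No Rif1 probe overlapped between the lines, and the direction was shared by all 3 while the size was not.

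The Rtel1 probes lay on either side of the 1.5-fold threshold. Its brightest probe read 10.36, 10.24 and 10.20 in MIN6 cells and 10.69, 10.75 and 10.70 in D3 cells. These arrays did not overlap, and the change of -0.45 ± 0.10 (log2, SE; 1.37-fold lower) passed the adjusted p (0.000467, limma) but not the fold, so the gene was not called. Probes ILMN_1255596 (9.55, 9.67 and 9.32 in MIN6 cells and 10.18, 10.13 and 10.23 in D3 cells) and ILMN_2626980 (9.17, 9.40 and 9.30 in MIN6 cells and 9.80, 9.97 and 9.91 in D3 cells) were called lower, by -0.67 and -0.61. Both calls were lost when arrays were scaled to a common median (-0.49 and -0.42) or normalized by cyclic loess (-0.54 and -0.48). The call of ILMN_1255596 was also lost without MIN6 replicate 3 (-0.57), and that of ILMN_2626980 without MIN6 replicate 1 (-0.55), without D3 replicate 2 (-0.57) and on the authors' processed values (-0.53). The remaining Rtel1 probe was above background on no array.

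**Figure D3:**
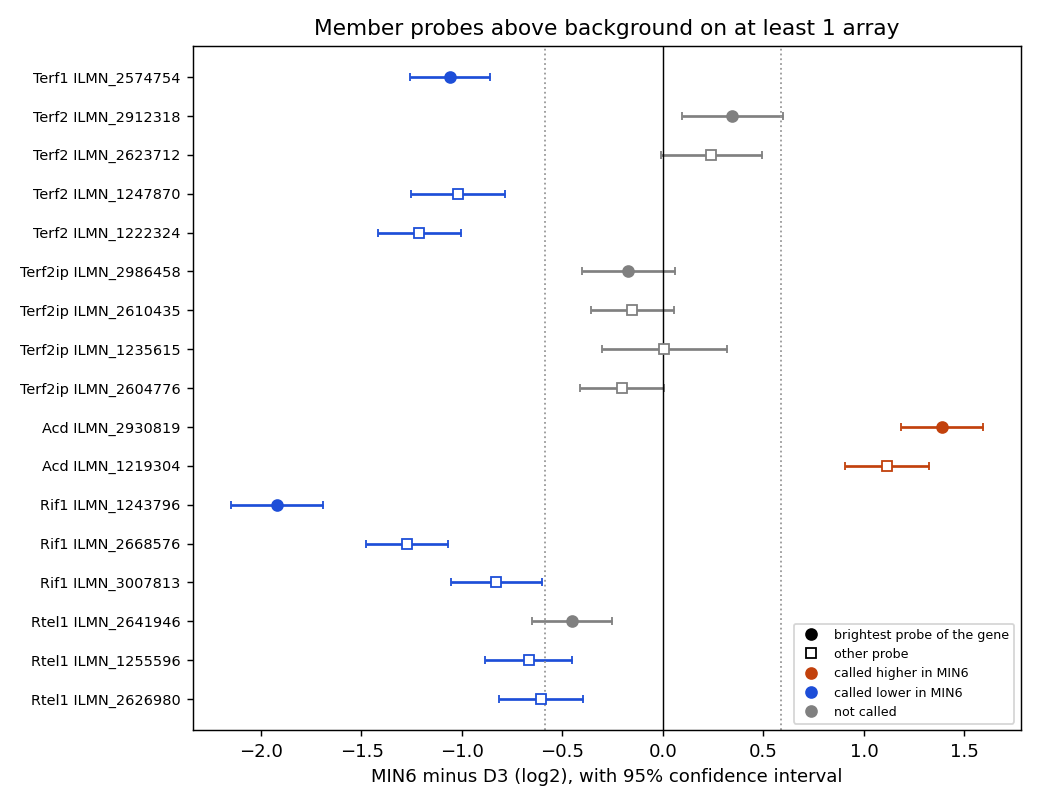
Change in MIN6 minus D3 (log2, with its 95% confidence interval from limma) for the 17 member probes above background on at least 1 array, with dotted lines at 1.5-fold. Both Acd probes lie to the right, all 3 Rif1 probes and the Terf1 probe lie to the left, and the Terf2 probes fall on both sides of 0.

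The genes that act with telomerase and shelterin were taken as 4 lists of 58 genes, of which 53 had a probe. Of the 53, 3 were called higher and 27 lower (50.9%, against 17.5% of all genes), and 23 were not called. The median log2 change was -0.59, against -0.01 over all genes. The bases are unlike, since 8 of the 53 were above background on no array, against 8204 of all 19057 genes. These shares and medians are therefore not set against genes of like signal. The lists were chosen with earlier results of these data known, so their share is a description. Tbp, a reference gene for transcription, was called lower as well (-1.01). Actb (-0.39) and Gapdh (-0.51) passed the adjusted p (0.00147 and 0.000185, limma) but not the fold, so they were not called. All of these reference genes read lower in MIN6 cells, and none overlapped between the lines. A dimmer probe was called where the brightest was not for Ctc1, Parn and Cbx3 (lower) and for Smc6 (higher). The reverse, a called brightest probe beside an uncalled dimmer one above background, held for Nop10, Usp7 (-0.55) and Upf1 (-0.53 and -0.46).

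Of the 4 lists, telomerase assembly stood furthest to one side, with 0 higher and 10 lower of 14 measured genes (71.4%). Over all genes 17.1% were called higher and 17.5% lower. Its median was -1.29. Of the 14, 11 were above background on all arrays, against 7223 of all 19057 genes, so its share is not set against genes of like signal. Nhp2, Gar1 and Nop10 encode the proteins that join dyskerin on H/ACA RNAs, a class that includes Terc and the RNAs that guide pseudouridylation of ribosomal RNA. Nhp2 read 10.99, 10.99 and 10.80 in MIN6 cells and 13.61, 13.64 and 13.63 in D3 cells, and was 6.51-fold lower in MIN6 cells (-2.70 ± 0.10, adjusted p = 1.4e-15, limma). Gar1 read 11.56, 11.55 and 11.66 in MIN6 cells and 13.22, 13.21 and 13.20 in D3 cells, 3.08-fold lower. Nop10 changed least of the 3, at 13.28, 13.24 and 13.25 in MIN6 cells and 13.80, 13.91 and 14.02 in D3 cells, 1.57-fold lower. Its second, dimmer probe went the other way, at 8.18, 8.05 and 8.19 in MIN6 cells and 7.72, 7.89 and 7.89 in D3 cells (0.31, adjusted p = 0.0153 in limma, not called), while the second probes of Nhp2 and Gar1 were called lower. The AAA+ ATPases of H/ACA particle assembly were called lower too, Ruvbl2 by 5.11-fold and Ruvbl1 by 3.99-fold. Nvl, a ribosome assembly ATPase (-1.97), and Pinx1, a nucleolar inhibitor of telomerase (-1.60), were also called lower. So was Shq1, a dyskerin chaperone (-1.57), which was above background on only 1 of the 3 MIN6 arrays. The chaperones Hsp90aa1 (-1.01) and Ptges3 (-0.69) were called lower. Wrap53, which carries telomerase RNA to Cajal bodies, changed by 0.15 and Parn, which trims its end, by -0.15, neither called, and Naf1 was above background on no array. Many of these proteins serve ribosome production and chaperoning in general, and the list is not specific to telomerase.

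The promoters of the 3 H/ACA protein genes are shown because the brightest probe of each was called lower, and that of Acd because it was the member called higher. Each is the 250 bases before the annotated gene start in RefSeq on build GRCm38.p6, 5′ to 3′ on the gene's strand, with capitals marking any GC box (GGGCGG), E-box (CACGTG) or ETS motif (CCGGAAG) on either strand. The motifs were chosen after the sequences were seen and do not overlap one another in these windows.
Acd, chr8:105701229-105701478, minus strand: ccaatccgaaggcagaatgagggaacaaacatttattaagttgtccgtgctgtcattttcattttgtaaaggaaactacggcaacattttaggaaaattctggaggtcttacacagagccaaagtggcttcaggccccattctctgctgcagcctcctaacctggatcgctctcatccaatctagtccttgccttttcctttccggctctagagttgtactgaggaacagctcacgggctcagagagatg
Nhp2, chr11:51619523-51619772, plus strand: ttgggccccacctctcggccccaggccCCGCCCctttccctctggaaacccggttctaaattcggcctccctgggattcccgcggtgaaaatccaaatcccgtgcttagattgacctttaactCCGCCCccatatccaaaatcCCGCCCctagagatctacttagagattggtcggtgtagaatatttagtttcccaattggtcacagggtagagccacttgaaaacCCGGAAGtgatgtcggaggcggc
Gar1, chr3:129831397-129831646, minus strand: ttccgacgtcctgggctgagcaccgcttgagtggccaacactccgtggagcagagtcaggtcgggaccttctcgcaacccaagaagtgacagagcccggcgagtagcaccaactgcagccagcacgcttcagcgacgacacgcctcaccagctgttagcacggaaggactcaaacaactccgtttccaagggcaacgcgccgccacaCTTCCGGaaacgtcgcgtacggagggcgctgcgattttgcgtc
Nop10, chr2:112261676-112261925, plus strand: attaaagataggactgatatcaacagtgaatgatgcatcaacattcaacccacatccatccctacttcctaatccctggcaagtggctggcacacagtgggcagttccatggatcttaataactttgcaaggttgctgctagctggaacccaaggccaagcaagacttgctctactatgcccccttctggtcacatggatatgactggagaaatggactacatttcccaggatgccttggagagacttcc
The Nhp2 window held 3 GC boxes and 1 ETS motif, the Gar1 window held 1 ETS motif, and the Nop10 and Acd windows held none of the 3 motifs. Among all 32851 promoter windows of this length, 32.7% held a GC box, 6.91% an ETS motif and 6.02% an E-box. A match describes letters only. Of the 10 members, 8 had a promoter entry, and Terf1 and Rif1 had none.

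The list of Pot1b, the CST complex and end processing had 1 gene higher and 4 lower of 13, with a median of -0.49. The shares called higher and lower were 7.69% and 30.8%, against 17.1% and 17.5% of all genes. Ten1, the smallest CST subunit, was called higher, at 10.16, 10.14 and 10.07 in MIN6 cells and 8.61, 8.67 and 8.62 in D3 cells (2.81-fold, adjusted p = 1.7e-11, limma). Its partners Ctc1 (-0.49) and Stn1 (-0.56) passed the adjusted p but not the fold. CST caps the end after telomerase has acted and lets the other strand be filled in. Mre11a (-1.61) and Rad50 (-1.44), which form a nuclease complex that senses breaks and unprotected ends, were called lower, as were the nuclease subunit Ercc1 (-0.87) and Exo1, an end-resecting nuclease above background in D3 cells only. Their partner Nbn was above background on no array.

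Among shelterin modifiers and telomere replication genes, 2 were higher and 6 lower of 14, with a median of -0.20. These are 14.3% and 42.9%, against 17.1% and 17.5% of all genes. Fbxo4, an F-box protein known in human cells to mark TERF1 for degradation, read 10.34, 10.32 and 10.06 in MIN6 cells and 8.07, 8.16 and 7.77 in D3 cells. It was 4.71-fold higher in MIN6 cells (2.23 ± 0.11, adjusted p = 5.1e-13, limma). All 3 of its probes were called higher. The brightest and the second were each above background on 2 of the 3 D3 arrays. The dimmest was above background on 2 MIN6 arrays and 0 D3 arrays, and its bound was only 1.04-fold. Fen1, the flap nuclease of lagging-strand replication, was 1.86-fold higher. Blm, a helicase that aids telomere replication, read 10.85, 10.75 and 11.09 in MIN6 cells and 13.15, 12.96 and 12.85 in D3 cells, 4.25-fold lower. Usp7 (-1.29), a deubiquitinase, and the cohesin-like Smc5 (-0.83) were called lower. The helicase Pif1 (-0.73), the ubiquitin ligase Siah1a (-0.67) and the tankyrase Tnks2 (-0.59) were called lower too, with Tnks2 just past the fold threshold. Tnks, the other tankyrase, which releases human TERF1 from telomeres, averaged 11.85 in MIN6 cells and 11.85 in D3 cells. Smc6, the partner of Smc5, was not called at its brightest probe (0.18), but its other probe was called higher (1.22).

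Among genes of telomere chromatin and telomerase-independent maintenance, 0 were higher and 7 lower of 12 (58.3%), with a median of -0.86. Over all genes 17.1% were higher and 17.5% lower. Zscan10, an ES cell zinc finger factor, read 7.11, 6.91 and 7.04 in MIN6 cells and 10.91, 10.95 and 11.03 in D3 cells. It was above background on 0 MIN6 arrays, so MIN6 cells were at least 9.30-fold lower. Zscan4c, of a family tied to telomere lengthening in ES cells, was below its D3 level by at least 4.33-fold and Tcstv3 by at least 1.63-fold. Both belong to clusters of near-identical copies, so their probes may read more than 1 gene. Daxx (-1.21), a histone H3.3 chaperone, was called lower, while Atrx, its partner, changed by 0.02 (95% interval -0.19 to 0.24). The RNA-binding protein Hnrnpa1 (-0.99), the RNA helicase Upf1 (-1.09) and the histone methyltransferase Suv39h2, above background in D3 cells only, were the other genes called lower. The bound for Suv39h2 was 1.12-fold and that for Exo1 1.30-fold, both below the 1.5-fold threshold.

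**Figure D4:**
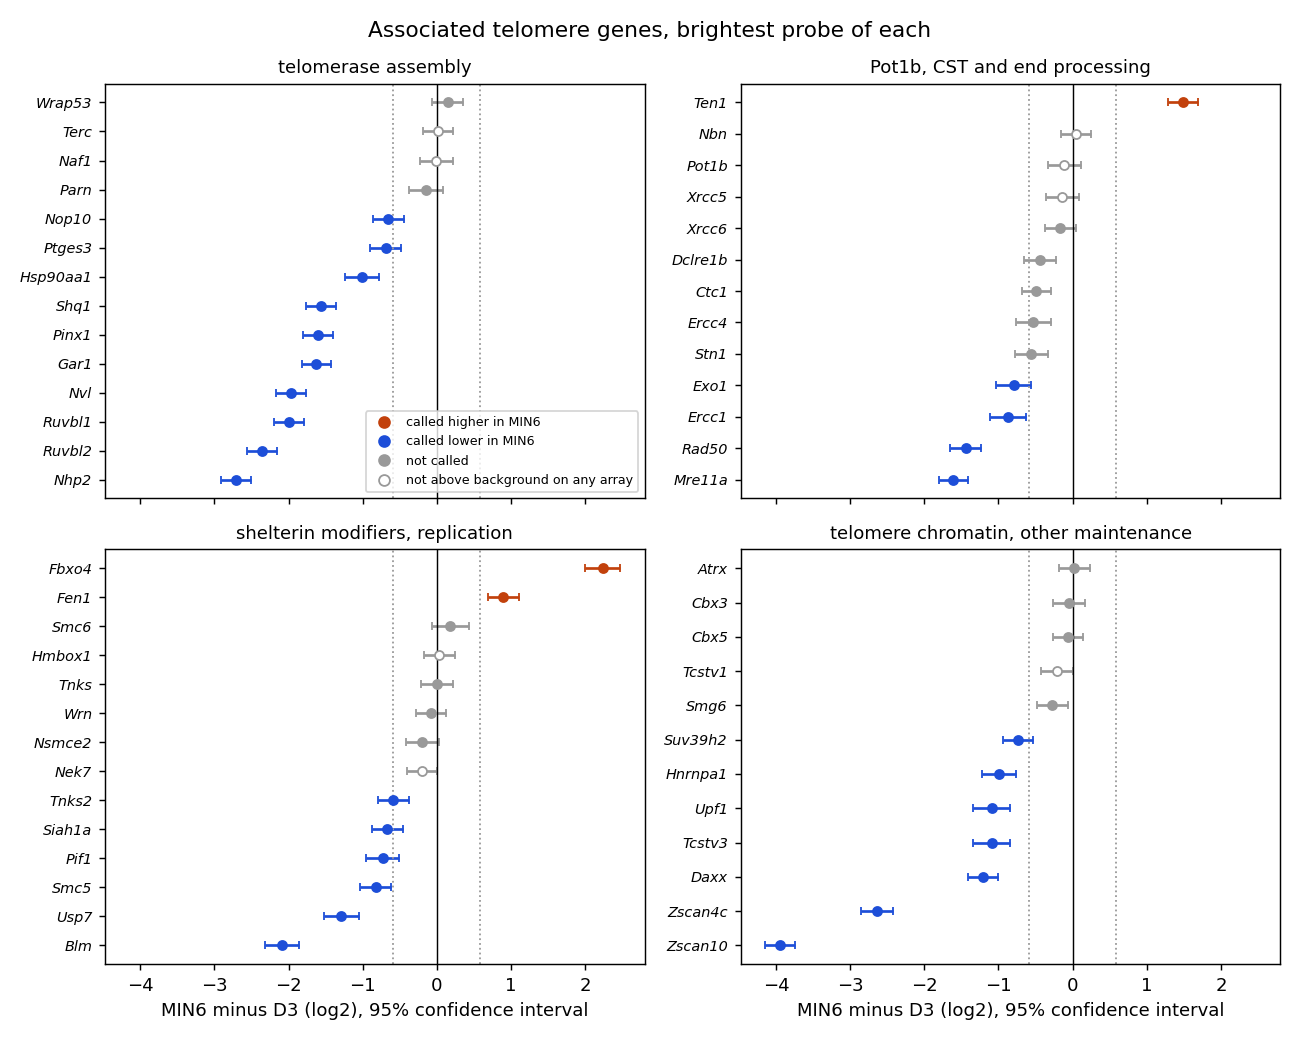
Change in MIN6 minus D3 (log2, brightest probe, with its 95% confidence interval from limma) for the 53 measured genes of the 4 associated lists, with dotted lines at 1.5-fold and open points for genes above background on no array. The telomerase assembly panel holds 10 genes called lower, and Ten1, Fbxo4 and Fen1 are the 3 genes called higher in all panels.

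The genes whose pattern across the 6 arrays was most like that of Rif1 were Slc25a36 (r = 0.99962), Col13a1 (r = 0.99956) and Galnt16 (r = 0.99938), out of 6579 called genes compared. With 2 lines of 3 arrays each, r mostly reads the shared step between the lines, and it is given as a description. Col13a1 and Galnt16 were above background in D3 cells only.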

How the data were processed

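Signals were read from the deposited table of intensities, which the authors left on a linear scale without normalization or background subtraction. The deposited column headed as a detection p-value holds 1 minus p and was turned back. The deposited log2-like values, quantile-normalized by the authors with lumi, served only as an alternative. Versions of the scanner software and lumi are not given in the sources used here.

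Intensities were quantile-normalized between the 6 arrays, taken to log2 and fitted per probe with limma 3.58.1 (lmFit and eBayes, R 4.3.3), as MIN6 minus D3 with no block and no filter, and adjusted over 45281 probes (Benjamini-Hochberg). A call needed both 1.5-fold or more and an adjusted p under 0.05. A probe was above background at a detection p under 0.01. Where a line had no array above background, the fold is a bound against that line's lowest signals above background, or the probe's own signal where that was higher. A gene was read by its brightest probe on average. Of the probes, 34885 had 1 gene symbol, 18 several and 10378 none. Tep1, Zbtb48, Zscan4d, Zscan4f and Suv39h1 were not analysed here.

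All member probes were described. In each associated list every called gene was named, beside partners of a complex that were added after their values were seen. The 3 genes most like the member with the largest change, and Actb, Tbp and Gapdh, were also named. Members and lists were chosen with earlier results of these data known. Alternatives were normexp (offset 16), median scaling, cyclic loess, detection filters, the deposited log2 values, a robust prior with a trend, the replicate number as a block, each array left out, Student's t-test of the methods, other fold thresholds and the mean of all probes. The steps were tested on simulated data. The series record calls the replicates independent and the labels of single samples do not name separate cultures, so p-values may measure only technical spread. Precision is limited by 3 arrays per line. matplotlib 3.10.9 (Python 3.11.15, numpy 2.4.6) drew the figures.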

Additional observations from a re-analysis of the deposited data

How the results depend on the processing

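The 3 called members were Acd, Terf1 and Rif1 under every normalization, filter, prior and t-test run and with any 1 array left out, so the range over left-out arrays was 1 to 1 higher and 2 to 2 lower. With no fold threshold 3 members were higher (Acd, with Terf2, and Tinf2 at background) and 4 lower (Terf1 and Rif1, with Rtel1, and Dkc1 at background). With the mean of all probes 1 was lower, since Terf1 then averages in a probe at background, and the Terf1 to Terf2 difference was -0.17. That difference ranged over left-out arrays between -1.51 and -1.31. Of the associated genes, 27 were lower in the main fit, 17 at 2-fold or more and 32 with no fold threshold. The lower count was 22 with cyclic loess, 26 with median scaling and 29 with normexp. It was 25 on the authors' processed values and 25 with the mean of all probes. Over left-out arrays 3 to 3 were higher and 26 to 29 lower. Of the other values for single probes under each alternative, 293 kept their direction and side of the threshold, 12 lost the call, 2 gained it and 5 changed sign, none of them a called value. Terf2 was -0.35 with the mean of all probes. Terf2ip probe ILMN_2610435 was 0.0116 with median scaling, and Terf2ip probe ILMN_1235615 was -0.0329 with normexp and ranged over left-out arrays between -0.238 (without MIN6 replicate 3) and 0.181, with -0.0397 without D3 replicate 1.

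Same-numbered arrays did not deviate together (correlations of 0.00993, -0.0028 and -0.0226), so the number was not taken as a pairing, and with it as a replicate block the members called were again 1 higher and 2 lower and the associated genes 3 higher and 27 lower. The fold threshold alone set these counts, since the largest adjusted p among probes past 1.5-fold was 0.00288. Signal over background limits 4 of the 10 members, for which these arrays give no level.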
